A study of Saccharomyces cerevisiae with 4 samples.

Results

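The core and variant histone genes of budding yeast form a group of 10, chosen by gene symbol: HTA1 and HTA2 for histone H2A, HTB1 and HTB2 for H2B, HHT1 and HHT2 for H3, HHF1 and HHF2 for H4, HTZ1 for the variant H2A.Z and CSE4 for the centromeric form of H3. Of these 10 genes, 9 had a value, from 10 probe sets among the 5498 that name 1 *Saccharomyces cerevisiae* gene, and 5449 genes were measured in all. RNA came from haploid cells of the strain FM391, wild type or lacking SOD1, which encodes the enzyme that clears superoxide from the cytosol. Each strain was taken untreated and after 20 min in 0.4 mM H2O2, at an optical density of about 0.4, in medium lacking leucine at 30 °C. Every group was 1 Affymetrix array, so no difference below has a replicate check or a p-value, and each compares arrays rather than sets of cultures. The labels name neither the construct that removed SOD1 nor the number of clones.

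Core histones package DNA into nucleosomes, each built from H2A, H2B, H3 and H4. In yeast each core histone is encoded by a pair of genes arranged with a partner gene and transcribed away from it, and all are transcribed mainly as cells enter S phase, when new DNA must be packaged. Outside S phase the HIR complex represses most of them, while Spt10 and Spt21 act as activators. Htz1 replaces H2A at many promoters and is made throughout the cell cycle, and Cse4 replaces H3 in the nucleosome on which the kinetochore is built.

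Levels are log2 signals, and a gene was called higher or lower at a 2-fold difference, provided its brighter array lay above a background floor of 2.31. That floor is the 95th percentile of the probe sets for *Schizosaccharomyces pombe*, a yeast that was not in the samples. The deletion was visible in the data, with SOD1 at 14.21 and 14.31 on the untreated and treated wild type arrays and at 2.40 and 2.42 on those of sod1Δ. Over all genes, 198 were higher and 170 lower in untreated sod1Δ than in untreated wild type, and 164 and 338 after H2O2. After quantile normalization these became 229 and 129, and 230 and 215. The response in sod1Δ minus the response in wild type passed 2-fold upwards for 143 genes and downwards for 216, or 194 and 183 after quantile normalization. Among genes with 2 probe sets, the spread between the probe sets amounted to an SD per probe set of 0.51 for the response in wild type. It was 0.59 for that in sod1Δ and 0.45 for the difference of the responses. The arrays also carry 18 hybridization control probe sets, for bacterial and phage transcripts added at the array step, and these did not read alike on the 4 arrays. Their median response was -0.74 in wild type and 0.11 in sod1Δ, or -0.38 and 0.11 over the 12 brighter ones, which leave out bioB. Scaling to these controls moved the median of all genes in wild type from -0.03 to 0.33 with the 12 bright controls, to 0.74 with all 18, and to 1.07 when arrays were centred on the median level of the 18. All 3 scalings were chosen after seeing the data, the last being tried first, and their effect is given beside the results. With the 12 bright controls 1314 genes were higher and 584 lower in wild type, in place of 915 and 862, and with all 18 controls 2023 and 404. For the difference of the responses these scalings gave 47 higher and 705 lower, and 23 and 1923. Between the untreated strains they gave 298 and 91, and 704 and 39, and after H2O2 100 and 559, and 97 and 585.

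**Figure D1:**
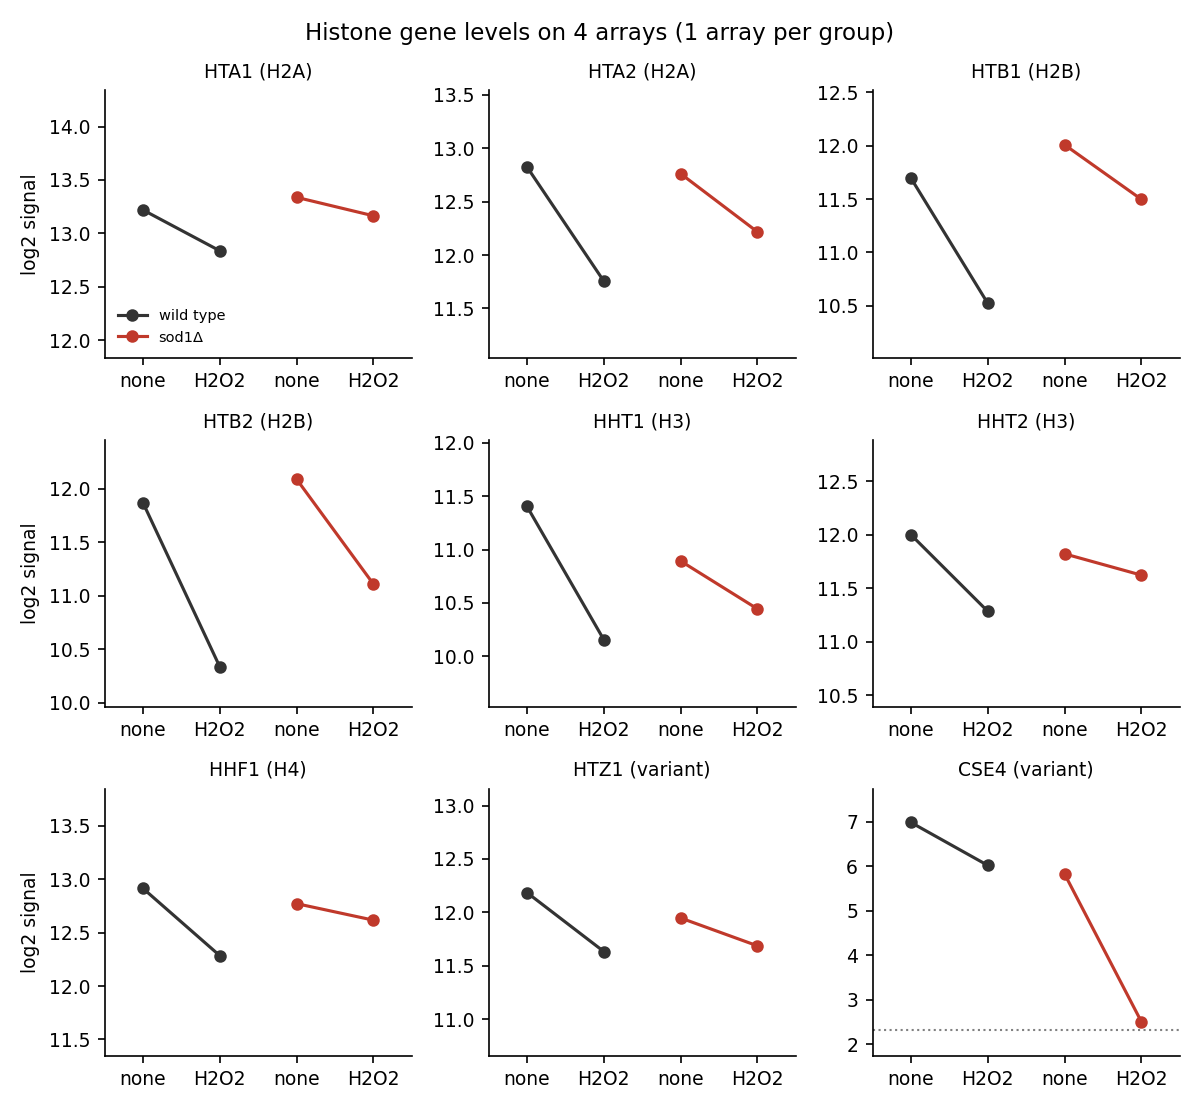
Levels of the 9 measured histone genes, each point 1 array (y axis, log2 signal; x axis, untreated or H2O2; black, wild type; red, sod1Δ). The y axis covers the same span in every panel except that of CSE4, where the dotted line is the floor of 2.31; each gene is lower after H2O2 in both strains, and CSE4 in treated sod1Δ lies at 2.51.

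The probe sets do not separate all paralogues. HHT1 and HHT2 encode the same H3 protein, HHF1 and HHF2 the same H4 protein, and the H2A and H2B pairs encode nearly identical proteins. HHF2 had no probe set of its own in the annotation, and the H4 probe set assigned to HHF1 carries a name ending in _s_at, the form used for probe sets that several transcripts can share. HTA2 had 2 probe sets, 1 of them of this shared kind. The sources used here do not say which other transcripts those probe sets bind, so the value for HHF1 may hold HHF2 too and the mean for HTA2 may hold HTA1. The 8 core probe sets are therefore not independent measurements.

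The first comparison asked how the histone genes responded to H2O2 in wild type. All 9 measured genes had lower values on the treated array, and 4 passed 2-fold: HTB2, HHT1, HTB1 and HTA2. That is 4 of 9 (44.4%), where 16.1% of the 5358 genes tested were lower by 2-fold and 17.1% higher. In bulk RNA, fewer cells in S phase and less RNA per cell cannot be told apart. The median of the 7 core genes was -1.07, against -0.03 over all genes. Among the 1962 genes with a mean level from 10 to 14, the range that holds every member except CSE4, 9.73% were lower by 2-fold, 57.7% lay below 0 and the median was -0.14. This range of levels was chosen from the members' own levels.

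The H2B genes had the largest and the third largest decrease of the core. HTB2 was at 11.87 untreated and 10.33 after H2O2 in wild type, and at 12.09 and 11.11 in sod1Δ. Its treated wild type array was the lowest of the 4, with the transcript at 34.5% of its untreated signal, and both untreated arrays lay above both treated ones. HTB1 was at 11.69 and 10.52 in wild type and at 12.01 and 11.50 in sod1Δ. Here too the treated wild type array was the lowest, at 44.4% of the untreated signal, a log2 difference of -1.17 against -1.53 for HTB2.

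The H2A genes, which lie next to the H2B genes, differed from each other. HTA2 was at 12.82 and 11.76 in wild type and at 12.76 and 12.22 in sod1Δ, a response of -1.07 in wild type. HTA1 was at 13.22 and 12.84 in wild type and at 13.34 and 13.16 in sod1Δ, so its arrays spanned the narrowest range of the core genes. The response of HTA1 was -0.38, smaller than that of its neighbour HTB1 by 0.79, while HTA2 and its neighbour HTB2 differed by 0.47. The SD between probe sets, 0.51, is that of a single probe set. A difference between 2 genes carries the spread of both, so 0.51 is too small a measure for these differences. The probe set of HTA2 that is not of the shared kind gave -1.19 and the shared one -0.94, so the call of HTA2 as lower rests on the first.

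Of the H3 and H4 genes, HHT1 alone passed 2-fold. HHT1 was at 11.40 and 10.16 in wild type and at 10.89 and 10.45 in sod1Δ. Untreated wild type was its highest array and treated wild type its lowest, a response of -1.25 that left 42.1% of the signal. HHT2, which encodes the same protein, was at 12.00 and 11.28 in wild type and at 11.82 and 11.62 in sod1Δ, a response of -0.72. The H4 probe set of HHF1 was at 12.91 and 12.28 in wild type and at 12.77 and 12.62 in sod1Δ, a response of -0.63. For both, the 2 untreated arrays lay above the 2 treated ones, and the treated wild type array was the lowest.

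The variants lay inside the 2-fold limit in wild type. HTZ1 was at 12.18 and 11.63 in wild type and at 11.95 and 11.69 in sod1Δ, a response of -0.55. CSE4 was at 6.98 and 6.02 in wild type, a response of -0.96 that misses the threshold by a narrow margin and passes it after quantile normalization, at -1.07. HHO1, the gene of the linker histone H1, which is no member of the group, was at 12.06 and 11.51, a response of -0.55.

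The size of these decreases, and for some genes the sign, depended on the scale between arrays. The 8 bright control probe sets in the level range of the core genes had wild type responses from -1.40 to -0.26, while those in sod1Δ ran from -0.08 to 0.20. Scaled to the 12 bright controls, HTB2 alone passed 2-fold at -1.17, with HTA2 at -0.71, HTB1 at -0.81 and HHT1 at -0.89. Scaled to all 18, no member passed 2-fold, the core median was -0.29, and HTA1 (0.39), HHT2 (0.06), HHF1 (0.15) and HTZ1 (0.23) turned above 0. Centred on the median level of the 18, the core median was 0.03, and only HTB1, HTB2 and HHT1 stayed below 0 among the members. Such a shift moves every gene equally, so the core median stayed 1.04 below that of all genes in each of these 3 scalings by construction. The part of the hybridization step in the histone values was not tested.

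In sod1Δ no core histone gene passed 2-fold with H2O2. Their responses ran from -0.98 (HTB2) to -0.15 (HHF1) with a median of -0.45, where the median of all genes was -0.03. All were below 0, as were 51.8% of all genes tested. HTB2 was again the gene with the largest decrease and the only core gene near the threshold, with 50.7% of its untreated signal left. The others kept from 68.6% (HTA2) to 89.8% (HHF1). CSE4 was the 1 member called lower, which is 1 of 9 (11.1%), beside 15.8% of the 5341 genes tested that were lower and 14.6% that were higher.

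**Figure D2:**
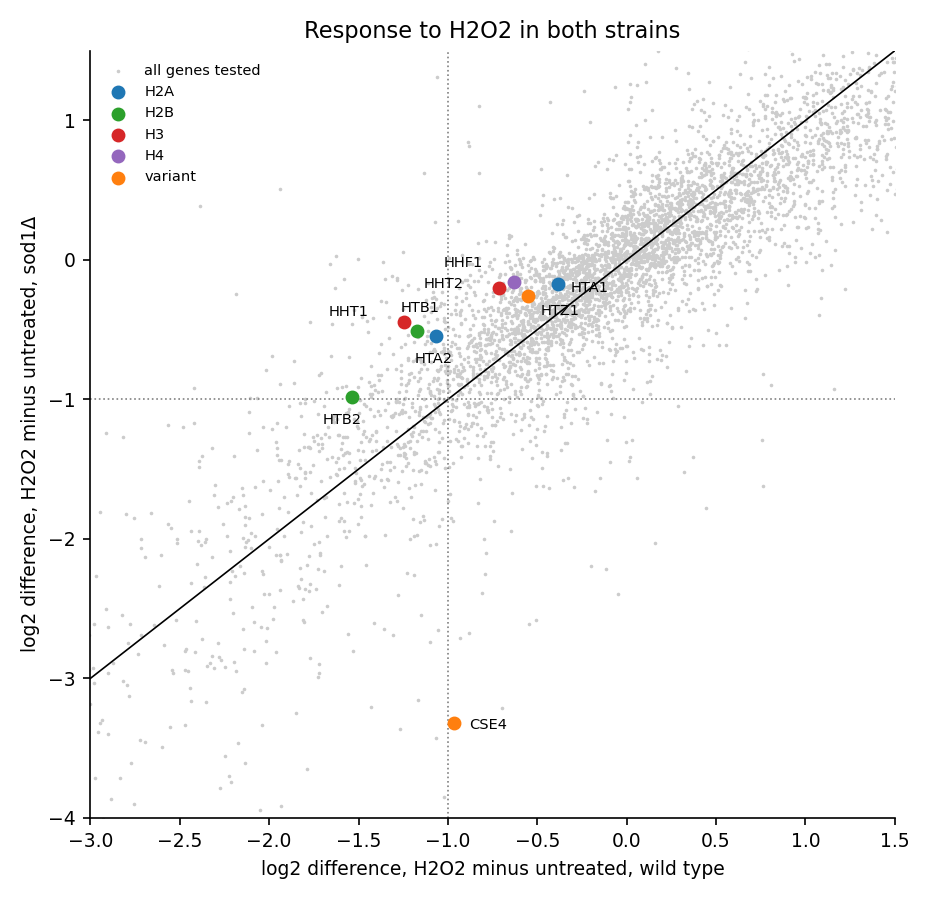
Response to H2O2 in wild type (x axis) and in sod1Δ (y axis), as log2 differences treated minus untreated, 1 array per group; grey points are all genes tested within the plotted range, coloured points the histone genes, the solid line equal responses and the dotted lines 2-fold decreases. The 7 core genes and HTZ1 lie above the line and to the left of 0, and CSE4 lies far below it at -0.96 and -3.32.

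The study's design compares the response between the strains. For the 7 core genes the response in sod1Δ minus the response in wild type was above 0 throughout, from 0.21 (HTA1) to 0.80 (HHT1) with a median of 0.52, which is to say that the decrease with H2O2 was smaller in sod1Δ by about 1.44-fold for HTA2, the median gene. Of the 5365 genes tested 47.9% were above 0. None of the 7 core genes reached 2-fold, a limit that 2.67% of the genes tested passed in this direction. The sign of this difference turned for all 7 when the arrays were scaled to all 18 hybridization controls, and for HTA1 with the 12 bright ones. Of the 1962 genes in the level range above, the 5th percentile was -0.70 and the 95th 0.469, and 6 of the 7 core genes, all but HTA1, exceeded the latter. HHF1 did so narrowly, at 0.475, and was at 0.42 after quantile normalization. HTA2 did so through its shared probe set, at 0.581, while its other probe set, at 0.467, lay just below the 95th percentile. In the other comparisons fewer core genes lay outside these percentiles. For the response in wild type 1 lay below the 5th, -1.31, and in sod1Δ 0 did. Between the strains 1 lay below the 5th untreated, -0.41, and 2 above the 95th after H2O2, 0.68. HHT1 at 0.80 stood above 95.9% of all genes tested, HTB1 at 0.66 above 94.2%, and HTB2 at 0.55 above 92.1%. HTZ1 was at 0.29, above 80.6%.

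The same quantity had a median of 0.52 in the 12 bright hybridization controls, with a range from 0.09 to 1.32, and of 0.84 in all 18. It was thus as large in added transcripts as in the core histone genes. Scaled to the 12 bright controls, the core median became 0.06, with HTA1 at -0.26, HTZ1 at -0.18 and HHT1 highest at 0.33. Scaled to all 18 it became -0.32, from -0.64 (HTA1) to -0.05 (HHT1), and centred on their median level -0.62. Relative to the median of all genes the core median stood 0.54 higher on the deposited scale and in these scalings, which keep that distance by construction. Over the 6 other ways of processing that do not use the controls, this distance ran from 0.49 (quantile normalization) to 0.57 (brightest probe set). The core median itself lay between 0.49 and 0.55 in those 6.

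CSE4 went the other way from the rest of the group. It was at 5.83 in untreated and 2.51 in treated sod1Δ, where it had been at 6.98 and 6.02 in wild type, so that treated sod1Δ stood far below the other 3 arrays and just above the floor. The response in sod1Δ was -3.32, or 10.0% of the untreated signal, and the difference of the responses -2.35. For the latter 0.503% of genes tested lay below CSE4, and 4.03% were lower by 2-fold. Under the 3 control scalings it was -2.82, -3.20 and -3.50. With 32 added to each signal before the logarithm, a change that acts mostly on dim genes, the response in sod1Δ was -1.24, the difference of the responses fell inside 2-fold at -0.53 and the treated strain difference was -1.36.

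In the strain comparison without H2O2 the core histone genes had a median near 0 on the deposited scale. Their differences, sod1Δ minus wild type, ran from -0.51 (HHT1) to 0.31 (HTB1) with a median of -0.06, and 4 were below and 3 above 0. Both H2B genes and HTA1 had higher values in sod1Δ, at 0.31 (HTB1), 0.22 (HTB2) and 0.12 (HTA1), and both H3 genes lower ones. No member was called higher, beside 3.71% of all 5344 genes, and CSE4 alone was called lower, at -1.16, beside 3.18%. The CSE4 call ended by a hair after quantile normalization, and also with 32 added, at -0.84, and scaled to the 12 bright controls, at -0.94. Scaled to all 18 controls CSE4 was at -0.57 and all 7 core genes lay above 0 with a median of 0.52.

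After H2O2 every core histone gene had a higher value in sod1Δ, where 45.0% of all genes tested did. The differences ran from 0.29 (HHT1) to 0.97 (HTB1) with a median of 0.34, where the median of all genes was -0.05. HTB1 and HTB2, at 0.97 and 0.78, were the highest, and the other 5 lay between 0.29 and 0.46. None passed 2-fold, beside 3.07% of all 5341 genes that did so upwards. HTZ1 differed by 0.05. CSE4 was at -3.51, an 11.4-fold lower deposited signal in sod1Δ, with 0.112% of genes below it, beside 6.33% called lower. The core median was 0.09 scaled to the 12 bright controls and 0.07 scaled to all 18, and -0.07 centred on their median level, where 4 of the 7 lay below 0. This comparison, the untreated one and both responses share arrays, so their values are not separate evidence.

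The transcripts of other cell cycle stages were read beside the histone genes, since histone genes are transcribed in S phase. Of 14 transcripts of G1 and S phase, 8 were lower with H2O2 in wild type (median -1.12) and 12 in sod1Δ (median -2.17), and 0 were higher in either. Over all genes 16.1% and 15.8% were lower. The difference of the responses was below 0 for 13 of these 14, with a median of -0.85. It was past 2-fold downwards for 5, beside 4.03% of all genes. On the deposited scale it was above 0 for all 7 core histone genes. Of all genes tested 47.9% were above 0 and 52.1% below. POL30, the gene of the sliding clamp of DNA polymerase, was at 10.06 and 8.27 in wild type and at 9.71 and 6.06 in sod1Δ. CDC45, encoding a part of the replicative helicase, was at 7.63 and 6.61 in wild type and at 6.92 and 3.07 in sod1Δ. For the S phase cyclin gene CLB6 these levels were 7.25 and 5.31, and 6.26 and 2.35. In each of the 3 genes treated sod1Δ was the lowest array by a wide margin, as it was for CSE4, while treated wild type was the lowest array of every core histone gene. CLB6 is among the 5 past 2-fold in the difference of the responses, at -1.98, but in treated sod1Δ it lay just above the floor of 2.31. CDC45 was dim there too, at 3.07. As for CSE4, this limits how the folds of these genes can be read. Scaling to the controls moves every gene equally, so with all 18 controls the sign turns for the core histone genes, while the distance between their median and that of the G1 and S transcripts is kept.

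**Figure D3:**
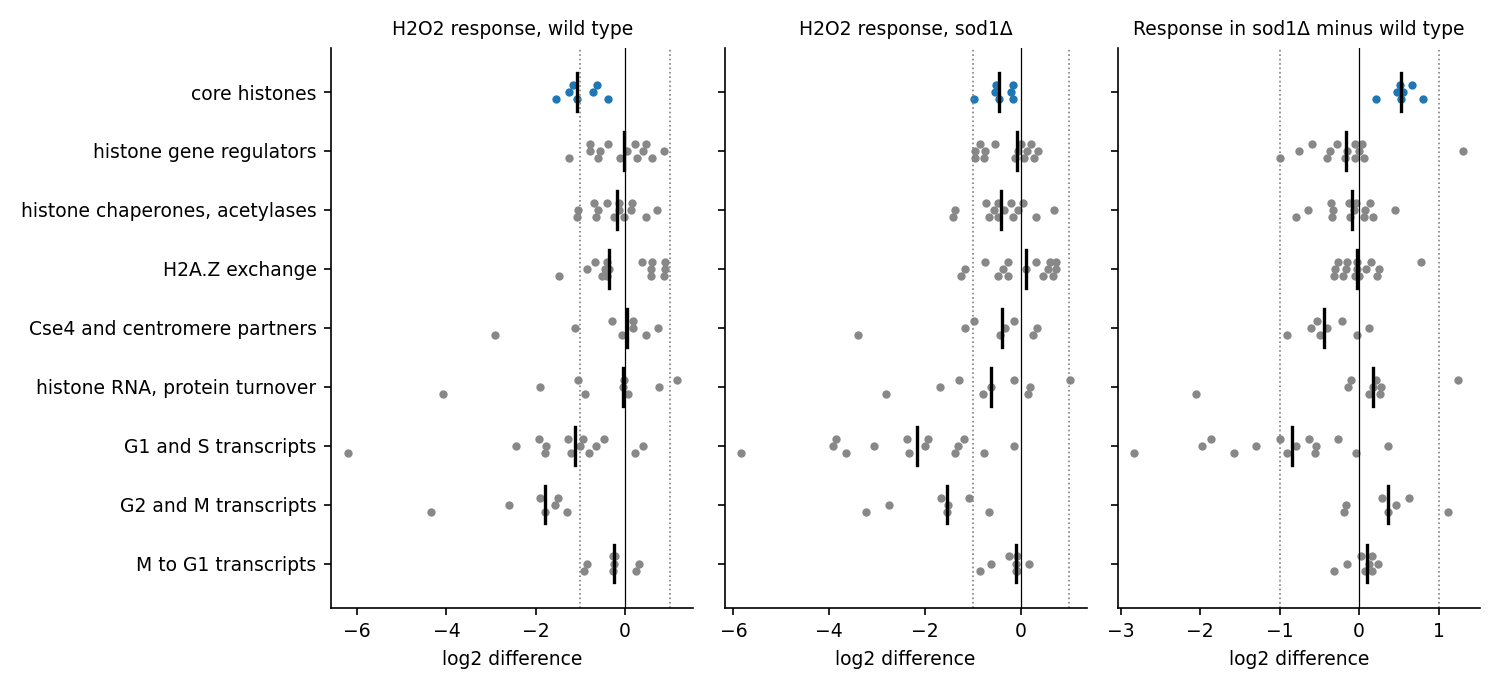
Log2 differences of single genes (points) in 9 gene lists, with black bars at the medians; from left to right the response to H2O2 in wild type, that in sod1Δ and their difference, with dotted lines at 2-fold. The core histone genes (blue) have medians of -1.07, -0.45 and 0.52, and the G1 and S transcripts of -1.12, -2.17 and -0.85.

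Transcripts of mitosis had large decreases in both strains. Of 7 measured G2 and M genes, 7 were lower in wild type (median -1.80) and 6 in sod1Δ (median -1.53), beside 16.1% and 15.8% of all genes. KIN3, a kinase gene of that list, was at 6.91 and 2.57 in wild type and at 5.56 and 2.33 in sod1Δ. Both treated arrays lay just above the floor of 2.31, so the difference of its responses, 1.12, reflects mostly the untreated levels and is not read as a difference in response. CLB2, encoding the main mitotic cyclin, went from 8.68 to 6.09 and from 8.10 to 5.35. The 8 transcripts of the passage from mitosis to G1 had medians of -0.25 and -0.10 with none past 2-fold. The part of the cell cycle distribution in the histone values was not tested.

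Few regulators of histone genes passed 2-fold. Of 14 such genes 1 was lower and 0 higher with H2O2 in wild type (median -0.03), and in sod1Δ none passed 2-fold (median -0.09). Over all genes 16.1% were lower and 17.1% higher in wild type, and 15.8% and 14.6% in sod1Δ. The 1 lower gene was HPC2, encoding a subunit of the HIR repressor complex. It was at 8.92 and 7.67 in wild type and at 7.45 and 7.51 in sod1Δ, so untreated wild type stood alone above the other 3 arrays, and the difference of its responses, 1.31, was the 1 in the list past 2-fold. The other HIR subunit genes HIR1, HIR2 and HIR3 had responses between -0.96 and -0.05 in the 2 strains, and differences of the responses between -0.18 and 0.06.

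The activator genes SPT10 and SPT21 were lower in treated sod1Δ than in treated wild type, where the core histone genes had higher values. SPT10, encoding the factor that binds the upstream elements of histone promoters, was at 8.08 and 8.55 in wild type and at 7.51 and 7.39 in sod1Δ. SPT21, whose product acts with Spt10, was at 7.56 and 8.45 in wild type and at 7.22 and 7.34 in sod1Δ. Treated wild type was the highest array for both, and after H2O2 both were lower in sod1Δ past 2-fold, at -1.17 and -1.10. They were the 2 of 14 regulators called in that comparison, beside 6.33% of all genes called lower, and the list had a median of -0.29.

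Histone chaperones and histone acetylases were lower with H2O2 in 2 of 14 cases in each strain, with medians of -0.19 and -0.42. That share is close to the 16.1% and 15.8% of all genes that were lower, so the count says nothing particular about this list. Both times these were HIF1, encoding a chaperone of the nuclear acetylase complex for H4, and KAP123, encoding an import receptor for H3 and H4, at -1.08 and -1.06 in wild type and -1.41 and -1.38 in sod1Δ. RLF2, the gene of the large subunit of the chromatin assembly factor that deposits H3 and H4 on new DNA, was at 10.38 and 10.51 in wild type and at 10.06 and 9.39 in sod1Δ, with treated sod1Δ the lowest array. RLF2 and RTT109, encoding an H3 acetylase, were the 2 called lower in treated sod1Δ, at -1.12 and -1.07, beside 6.33% of all genes. RTT109 was called lower in untreated sod1Δ too, at -1.24, so its strain difference is not particular to H2O2. It was at 3.12 to 4.51 on the 4 arrays, dim though above the floor of 2.31, which limits how its folds can be read.

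Few genes for the exchange of H2A.Z passed 2-fold. Of 15, 1 was lower with H2O2 in wild type (median -0.35) and 2 in sod1Δ (median 0.10), and 0 were higher in either. Over all genes 16.1% were lower and 17.1% higher in wild type, and 15.8% and 14.6% in sod1Δ, so the 2 lower in sod1Δ are close to that share. Between the strains 0 of the list were called in either condition, where 3.18% of all genes were lower untreated and 6.33% after H2O2. RVB1, a helicase gene shared with other chromatin complexes, was lower in both strains, at -1.48 and -1.25, and the actin-related ARP4 in sod1Δ, at -1.17. SWR1, the ATPase gene of the complex that inserts H2A.Z, had responses of -0.67 and 0.10. CHZ1, encoding a chaperone of H2A.Z, had responses of -0.41 and -0.26, near those of HTZ1 at -0.55 and -0.26.

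Of 8 partners of CSE4, 3 were called lower in treated sod1Δ than in treated wild type, CBF1 at -2.08, SCM3 at -1.36 and MIF2 at -1.35, where 6.33% of all genes were, and the list had a median of -0.61. CBF1, encoding a factor that binds a centromere element, was at 8.45 and 8.62 in wild type and at 6.98 and 6.55 in sod1Δ. It was thus called lower in untreated sod1Δ too, at -1.47, and both sod1Δ arrays lay below both wild type ones, which differs from CSE4, whose treated sod1Δ array stood apart. SCM3, encoding the chaperone that deposits Cse4, was at 5.33 and 6.07 in wild type and at 4.38 and 4.71 in sod1Δ, with the same order of the strains. MIF2, whose product binds the centromeric nucleosome, was at 7.49 and 7.41 and at 7.05 and 6.06, with treated sod1Δ the lowest. With H2O2, 2 of the 8 were lower in each strain, beside 16.1% of all genes in wild type and 15.8% in sod1Δ. Both times these were CBF2 and PSH1. CBF2, also named NDC10, encodes a subunit of the centromere binding complex and was at 9.59 and 6.69 in wild type and at 9.24 and 5.84 in sod1Δ, responses of -2.90 and -3.40. PSH1, encoding the ubiquitin ligase that removes misplaced Cse4, had responses of -1.13 and -1.16.

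Of 9 genes for the turnover of histone RNA and surplus histones, 3 were lower and 1 higher with H2O2 in each strain. The list had medians of -0.03 in wild type and -0.62 in sod1Δ. Over all genes 16.1% were lower and 17.1% higher in wild type, and 15.8% and 14.6% in sod1Δ. TRF5 and PAP2, encoding polymerases that add short tails to RNAs for decay, were at -4.07 and -1.05 in wild type and at -2.83 and -0.78 in sod1Δ. RRP6, a nuclease gene of the nuclear exosome, was at -1.91 and -1.70. HEL1, encoding a ligase that marks surplus histones, was higher in both strains, at 1.16 and 1.03. RAD53, encoding the checkpoint kinase that also guards against surplus histones, was at 6.30 and 7.05 in wild type and at 5.38 and 4.09 in sod1Δ, with the difference of its responses at -2.05. Its treated arrays were the highest and the lowest of the 4, in wild type and sod1Δ respectively. RAD53 was dim in treated sod1Δ, which limits how its folds can be read. In the difference of the responses RAD53 was the 1 of the 9 called lower and TRF5, at 1.25, the 1 called higher. Over all genes 4.03% were lower and 2.67% higher.

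The genes closest to each pattern were found from log2 levels centred on each gene's own mean over the 4 arrays, by Euclidean distance among 5356 genes outside the group. Nearest to the mean of the core histone genes were EMC4 (0.07), ITR1 (0.09), YRB1 (0.09), FLC3 (0.09) and DAD4 (0.10), all with responses between -0.98 and -0.87 in wild type and between -0.49 and -0.33 in sod1Δ. Nearest to HTZ1 were SGT2 (0.03), RRG8 (0.03), OXA1 (0.05), RPB2 (0.06) and NNF2 (0.06). Nearest to CSE4 was CDC45 (0.43), followed by RNH202 (0.53), ABF1 (0.55), CDC40 (0.71) and HSH155 (0.73). These distances are larger than those for the other patterns. All 5 genes were dim in treated sod1Δ, from 2.78 (HSH155) to 4.07 (ABF1), so the likeness rests mostly on that array. Each profile has 4 points, and these distances are a description of the 4 arrays.

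**Figure D4:**
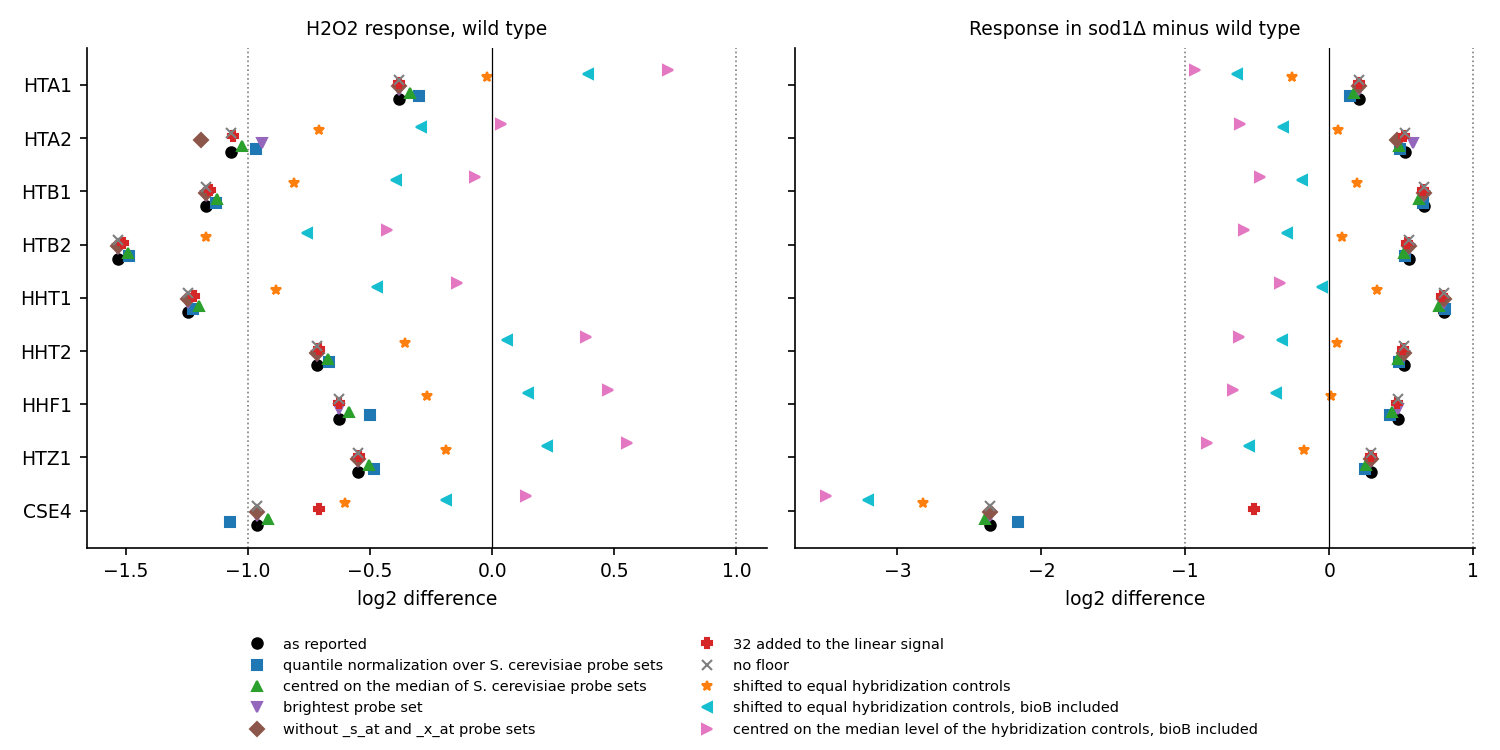
Log2 response to H2O2 in wild type (left) and difference of the responses, sod1Δ minus wild type (right), for each histone gene (rows) as reported and under 9 other ways of processing (symbols), with dotted lines at 2-fold. The 6 planned settings lie close together except for CSE4, which adding 32 (red) moves from -2.35 to -0.53, and the 3 scalings to hybridization controls (star and sideways triangles) move all genes right in the left panel and left in the right one, where both scalings to all 18 controls put all 7 core genes below 0.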

How the data were processed

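Per the labels' protocols, 50 ng of total RNA per sample was amplified, labelled with biotin and hybridized to 1 Affymetrix array. The values are the log2 signals per probe set deposited by the authors. They were made with GCRMA per the submitters' processing notes, which corrects background from probe sequence and normalizes arrays; the notes name no version or settings. Depth does not apply to arrays, and 1 array per group limits the precision.

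Probe sets were named from GEO's platform annotation (5498 with 1 *S. cerevisiae* gene, 1 with several genes, 3683 with none), 12 symbols were updated through the RefSeq table of assembly R64, and probe sets of a gene were averaged with Python 3.11.15, numpy 2.4.6 and pandas 2.3.3. The steps were tested on simulated data. No model was fitted, since 1 array per group leaves no residual degrees of freedom. Alternatives were other scalings, the brightest probe set, no shared probe sets, 32 added, no floor, and limits of 1.5-fold and 3-fold. Scaling to hybridization controls was added after seeing the data, in 3 forms: first centring each array on the median level of all 18, then, after that had reversed the core median in wild type, shifting by the median deviation of each control from its own mean over the 12 bright ones (bioC, bioD, cre) and over all 18 (bioB included). Members and gene lists were chosen with earlier results of these data known. Named genes were every member, listed genes (up to 4 of each list with the largest difference in a comparison, and all of a list's calls where these were 5 or fewer), SOD1 and the 5 nearest profiles; HIR1, HIR2, HIR3, SWR1, CHZ1 and CLB2 were added by role after their values were seen where they fell outside it. Older names in the lists were matched through RefSeq synonyms. HHF2 had no probe set annotated here, and promoter and protein sequences were not used here.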

Additional observations from a re-analysis of the deposited data

Results flagged for a closer look

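For 5 of the 9 measured histone genes the strain difference, sod1Δ minus wild type, had opposite signs without and with H2O2, which held for 26.5% of all genes tested. HHT1 went from -0.51 to 0.29, a change of 0.80 on the log2 scale. HTA2 went from -0.06 to 0.46, a change of 0.52, and HHT2 from -0.18 to 0.34, also a change of 0.52. HHF1 went from -0.14 to 0.33, a change of 0.47, and HTZ1 from -0.24 to 0.05, a change of 0.29. With 1 array per group these changes of direction were not tested, and each is under 2-fold. Scaled to the 12 bright hybridization controls, HTA2, HHT2 and HHF1 no longer changed sign and stood above 0 in both conditions, HTZ1 stood below 0 in both, and HHT1 still changed sign, from -0.30 to 0.04. The brightest probe set of HTA2 was above 0 in both conditions too. Scaled to all 18 controls, the 4 core genes stood above 0 in both conditions and HTZ1 went from 0.35 to -0.21.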

How the results depend on the processing

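No paired analysis was possible because each group is 1 array, and no array could be left out for the same reason. The count of histone genes called in wild type, 4 as reported, was 7 at 1.5-fold, 0 at 3-fold, 1 scaled to the 12 bright hybridization controls, and 0 in both scalings to all 18. Over all genes 26.2% were lower and 25.9% higher at 1.5-fold, and 8.94% lower at 3-fold. The members' count was 4 after quantile normalization as well, but with CSE4 in place of HTA2. In sod1Δ the count of 1 became 2 at 1.5-fold, where 25.3% of all genes were lower, and in all 3 control scalings, by HTB2. Between the untreated strains the count of 1 became 0 after quantile normalization, with 32 added, at 3-fold and in both control shifts, and centred on the controls' median level the 1 gene was HTB1, higher, in place of CSE4. After H2O2 the count of 1 became 3 at 1.5-fold, CSE4 lower and HTB1 and HTB2 higher, where 806 of 5341 genes were lower and 482 higher. For the difference of the responses it became 3 at 1.5-fold, CSE4 lower and HTB1 and HHT1 higher, where 11.5% of all genes were lower and 7.18% higher, and 0 with 32 added. The core median in wild type was -0.292 shifted to all 18 controls and reversed to 0.0344 centred on their median level, where HTA2 was at 0.0344 too. Between the untreated strains it became 0.521 and 0.674 in these scalings. The core median of the difference of the responses became 0.0583 with the 12 bright controls, -0.324 with all 18 and -0.619 centred on their median level. Of 100 such comparisons 76 stayed within 1.5 times the count, or within 1 SD between probe sets for a median. The control scalings were chosen after seeing the data, and which scale is right was not tested. Over all genes, adding 32 took those lower between the untreated strains from 170 to 71, those lower after H2O2 from 338 to 155, and those past 2-fold in the difference from 143 to 64 and from 216 to 97. Quantile normalization took those lower after H2O2 from 338 to 215. CSE4 lies near the floor in treated sod1Δ, which limits how its fold can be read.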

Other observations

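The array also carries 9 probe sets for histone genes of *S. pombe*, whose histone proteins are close to those of *S. cerevisiae*. Their levels ran from 1.97 to 2.33 over the 4 arrays, and 1 of the 9, for htb1, exceeded the floor on an array. The floor was set from all *S. pombe* probe sets, these 9 included, so most such values lie below it by construction. On the same arrays the *S. cerevisiae* core histone probe sets read between 10.16 and 13.34.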
